A study of Mus musculus with 21 samples.

Results

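Cholesterol is built by a chain of enzymes, and 7 genes of that chain were followed here through mouse myeloid progenitors sorted by CD62L: Hmgcs1, Mvd, Idi1, Fdft1, Sqle, Lss and Cyp51. They were chosen by name, and all 7 were found among the 47643 genes of the read-count table. All 7 were also among the 14801 genes that passed the filter on low counts. Each encodes an enzyme of synthesis, and none is a receptor or carrier for uptake. RNA-seq was done on bone marrow progenitors of adult, untreated C57/B6 mice, with no transgene, deletion or agent in any group. Bulk CMP (common myeloid progenitors) were lineage-negative, SCA-1-negative, C-KIT-positive, CD34-positive cells low for CD16/32, and bulk GMP (granulocyte-monocyte progenitors) were the matching cells high for CD16/32. CD62L, an adhesion molecule on the cell surface, divided the CMPs into CD62L-low CMP (named CD62L-neg CMP by the study) and CD62L-high CMP. It divided the GMPs into CD62L-neg GMP, CD62L-low GMP (CD62L-int GMP in the study) and CD62L-high GMP. Each of the 7 populations had 3 libraries, so there were 21 in all. No source used here says whether these came from separate mice, so a p-value here reflects the spread among these samples alone, and that spread may be technical.

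The pathway starts from acetyl-CoA. Hmgcs1 makes HMG-CoA, which is reduced to mevalonate, and Mvd forms isopentenyl diphosphate, which Idi1 isomerizes. Fdft1 (squalene synthase) joins farnesyl units into squalene, the step that commits them to sterols rather than to prenylation, dolichol or ubiquinone. Sqle adds an oxygen to squalene, Lss (lanosterol synthase) closes the rings to lanosterol, and Cyp51 removes a methyl group from lanosterol on the way to cholesterol. When sterol in the endoplasmic reticulum is low, SREBP-2 (gene Srebf2) is cleaved and activates most genes of the chain together, with genes for uptake. Dividing blood progenitors need cholesterol for membranes and obtain it both by synthesis and from lipoproteins.

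Total counts per library ran from 6145834 to 15263573 and went with population. They were 6145834 to 7262055 in bulk CMP and 7062317 to 7509818 in CD62L-low CMP, against 11360760 to 15263573 in all other populations. Where either of these 2 is compared with another population, depth and population cannot be told apart. Between 22.4% and 61.0% of the counts of a library lay on 3 abundant gene models (Gm23935, Gm26917 and Gm42418). The highest share, 61.0%, was in replicate 2 of bulk CMP, against 27.7% and 28.0% in the other bulk CMP libraries, and the next highest, 41.1%, was in replicate 1 of CD62L-high GMP. The study left out a bulk CMP library for poor mapping without naming it, and all 21 were kept here. Levels are given as CPM, counts scaled to a common library total, after adjustment of each library by TMM (the trimmed mean of M-values). The split of CMPs and GMPs by CD16/32 was visible in the RNA. Fcgr3, which encodes CD16, was at 6.54 to 15.7 CPM in the CMP libraries and 131 to 190 CPM in the GMP libraries. Summed B cell markers stayed at or below 0.676 CPM and summed T and NK cell markers at or below 0.605 CPM in every library.

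The stretches upstream of Hmgcs1, Lss and Cyp51 are printed because Hmgcs1 held the flattest level of the 7 genes across populations, Lss the most variable, and Cyp51 was the other gene to pass the test in the 7 comparisons of populations given below. The sequences are from RefSeq on GRCm38.p6, which had an entry for 5 of the 7 genes, and each is 5′ to 3′ on the strand of its gene. Capitals mark matches on either strand to the sterol regulatory element core (TCACCCCAC), the CCAAT box (CCAAT) and the GC box (GGGCGG).
Hmgcs1, chr13:119690101-119690350, plus strand: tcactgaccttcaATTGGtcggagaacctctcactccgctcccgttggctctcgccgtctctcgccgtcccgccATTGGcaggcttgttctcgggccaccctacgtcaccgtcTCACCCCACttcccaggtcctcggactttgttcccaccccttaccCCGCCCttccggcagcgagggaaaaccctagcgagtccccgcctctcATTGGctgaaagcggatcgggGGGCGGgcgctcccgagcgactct
Lss, chr10:76531355-76531587, plus strand: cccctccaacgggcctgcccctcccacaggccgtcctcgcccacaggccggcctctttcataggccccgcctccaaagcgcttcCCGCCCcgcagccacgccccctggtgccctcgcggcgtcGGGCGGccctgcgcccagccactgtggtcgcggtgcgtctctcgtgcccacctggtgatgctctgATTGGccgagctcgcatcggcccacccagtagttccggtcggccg
Cyp51, chr5:4104747-4104947, minus strand: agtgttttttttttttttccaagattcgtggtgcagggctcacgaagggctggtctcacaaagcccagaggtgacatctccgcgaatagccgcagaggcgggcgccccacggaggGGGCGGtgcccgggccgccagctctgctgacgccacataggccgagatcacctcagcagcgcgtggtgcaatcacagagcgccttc
The search covered the 250 bases before each start site. Hmgcs1 held TCACCCCAC, its first base at position -137, and the other 4 genes searched did not. The same letters stood before 0.5% of 32851 start sites in the mouse table, and the looser TCACNCCAC before 1.05%. CCAAT was found for 5 of 5 genes (33.85% of all start sites) and GGGCGG for 5 of 5 (32.74%). For Cyp51 the CCAAT match lies outside the printed part. The E-box CACGTG was found for 0 of 5 genes (6.02% of all). Apart from the pair of sterol element patterns, which share their match, no matches overlapped. A match is a description of sequence only.

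Lss varied most. In CD62L-low CMP its level was 23.5, 13.9 and 20.1 CPM in replicates 1 to 3. In bulk CMP it was 14.1, 11.7 and 12.7 CPM, and in CD62L-high CMP it was 3.79, 5.97 and 10.1 CPM. CD62L-high CMP thus lay below every library of the other CMP populations. In CD62L-neg GMP the level was 12.3, 18.8 and 10.3 CPM. In CD62L-low GMP it was 7.31, 9.06 and 5.25 CPM, in bulk GMP 6.59, 3.01 and 5.35 CPM, and in CD62L-high GMP 3.10, 1.56 and 4.49 CPM. All libraries of CD62L-neg GMP stood above every other GMP library. From the highest mean (19.2 ± 4.86 CPM, SD, n = 3, CD62L-low CMP) to the lowest (3.05 ± 1.47 CPM, CD62L-high GMP) the ratio was 6.29. The order between them was CD62L-neg GMP (13.8 ± 4.45 CPM), bulk CMP (12.8 ± 1.21 CPM), CD62L-low GMP (7.21 ± 1.91 CPM), CD62L-high CMP (6.61 ± 3.19 CPM) and bulk GMP (4.98 ± 1.82 CPM). No pair of neighbours in this order passed the test, and of the neighbours the libraries of bulk CMP and CD62L-low GMP alone did not overlap (log2 difference 0.84, standard error 0.39, edgeR adjusted p = 0.118).

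**Figure D1:**
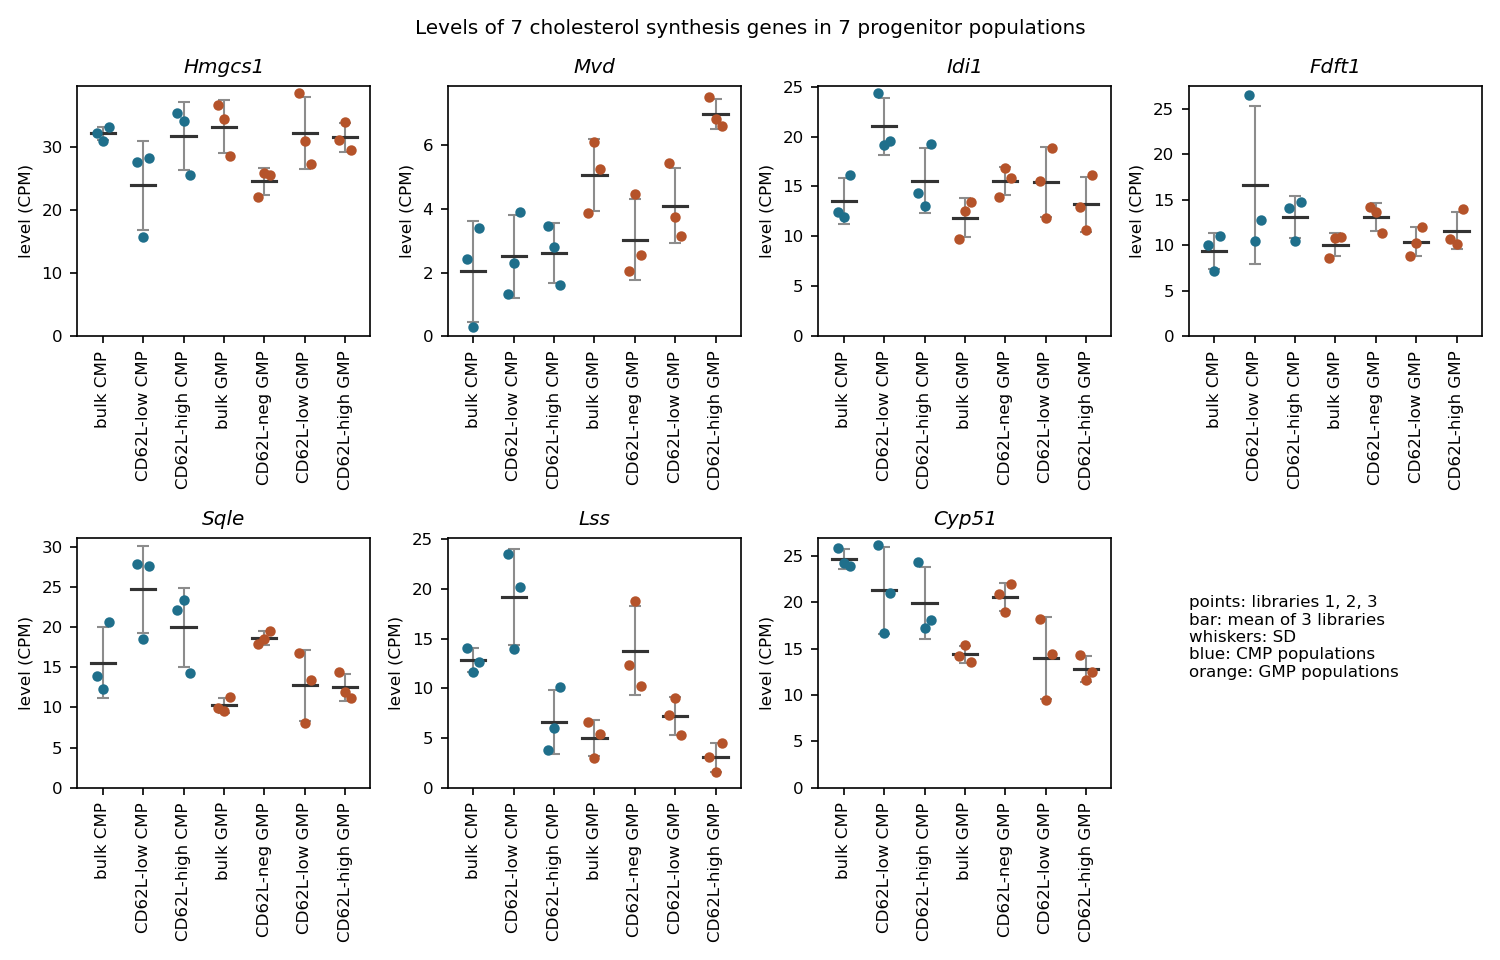
Level of each gene (CPM, linear axis from 0) in the 7 populations, with points for the 3 libraries, a bar for their mean and whiskers for the SD. Lss falls from 19.2 CPM in CD62L-low CMP to 3.05 CPM in CD62L-high GMP, whereas the population means of Hmgcs1 stay between 24.0 and 33.3 CPM.

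For Hmgcs1, Idi1 and Fdft1 the highest population mean was 1.39, 1.77 and 1.76 times the lowest. The ratio was 1.93 for Cyp51, 2.41 for Sqle and 3.43 for Mvd. Mvd, like Hmgcs1 and Idi1, acts before squalene, and its ratio alone kept the ratios from dividing the genes by place in the chain. That ratio rests on low counts, from 1 to 99 per library. Population means of Hmgcs1 ran from 24.0 ± 7.07 CPM in CD62L-low CMP and 24.6 ± 2.12 CPM in CD62L-neg GMP to 33.3 ± 4.21 CPM in bulk GMP. The ranges of libraries of all neighbours in its order overlapped, except those of CD62L-high GMP and CD62L-neg GMP (log2 difference 0.36, standard error 0.20, adjusted p = 0.241). Idi1 was at 24.3, 19.2 and 19.6 CPM in CD62L-low CMP, and the other population means lay between 11.9 and 15.6 CPM. Fdft1 had means from 9.40 ± 1.98 CPM in bulk CMP to 16.6 ± 8.69 CPM in CD62L-low CMP. That highest mean rested on replicate 1, at 26.5 CPM, while replicates 2 and 3 were at 10.5 and 12.7 CPM, inside the range of the other populations.

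Mvd had the fewest counts, from 1 to 99 per library. Its GMP means ran in the reverse order of those of Lss, and its CMP means did not. It was at 7.51, 6.82 and 6.63 CPM in CD62L-high GMP (mean 6.99 ± 0.465 CPM). Bulk GMP followed at 5.08 ± 1.13 CPM, then CD62L-low GMP at 4.11 ± 1.18 CPM and CD62L-neg GMP at 3.04 ± 1.27 CPM. The CMP means were 2.63 CPM in CD62L-high CMP, 2.52 CPM in CD62L-low CMP and 2.04 CPM in bulk CMP. All CD62L-high GMP libraries were above every other library, and the bulk CMP mean included replicate 2, where a count of 1 gave 0.299 CPM.

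Among the enzymes after squalene, Sqle was highest in CD62L-low CMP, with 28.0, 18.5 and 27.7 CPM. Its means then fell in the order CD62L-high CMP (20.0 ± 4.93 CPM), CD62L-neg GMP (18.7 ± 0.841 CPM), bulk CMP (15.6 ± 4.43 CPM), CD62L-low GMP (12.7 ± 4.42 CPM), CD62L-high GMP (12.5 ± 1.67 CPM) and bulk GMP (10.3 ± 0.921 CPM). Every neighbour in that order overlapped the next. More distant populations did differ, as in CD62L-low CMP against bulk GMP (log2 difference 1.27, edgeR adjusted p = 0.000828). Over all 21 pairs of populations, an adjusted p under 0.05 was reached in 8 for Lss, 6 for Cyp51 and 4 for Sqle. Idi1 and Mvd reached it in 2 each, and Hmgcs1 and Fdft1 in 0. The share of all genes that passed ran from 0.304% to 32% by pair, and pairs share libraries. Cyp51 was at 25.9, 24.2 and 23.9 CPM in bulk CMP. Its means in CD62L-low CMP (21.3 ± 4.72 CPM), CD62L-neg GMP (20.6 ± 1.53 CPM) and CD62L-high CMP (19.9 ± 3.86 CPM) lay close together. Lower means followed in bulk GMP (14.4 ± 0.896 CPM), CD62L-low GMP (14.0 ± 4.40 CPM) and CD62L-high GMP (12.8 ± 1.36 CPM). The libraries of the neighbours CD62L-high CMP and bulk GMP did not overlap (log2 difference 0.47, standard error 0.22, adjusted p = 0.276). Replicate 1 of CD62L-low GMP, at 18.2 CPM, was above replicate 2 of CD62L-low CMP (16.7 CPM). It was also above replicates 2 and 3 of CD62L-high CMP (17.3 and 18.1 CPM).

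Divided by exon length, so that genes can be set beside each other, mean levels over all 21 libraries were 6.53 CPM per kb for Hmgcs1, 4.33 for Idi1, 4.13 for Cyp51, 2.95 for Sqle, 2.84 for Fdft1, 2.03 for Mvd and 0.895 for Lss. The length is the union of all annotated exons of GENCODE on GRCm38, and for Lss (chr10:76531588-76557138, plus strand) that union is long, 10787 bases in 21 blocks. Over all genes of the set, the summed level was 129 ± 30.5 CPM in CD62L-low CMP, 110 CPM in both bulk CMP and CD62L-high CMP, 109 CPM in CD62L-neg GMP, 96.2 CPM in CD62L-low GMP, 91.8 CPM in CD62L-high GMP and 89.9 CPM in bulk GMP.

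CD62L-high CMP was compared with CD62L-low CMP to ask how the chain differs across the CMP compartment. Lss was lower in CD62L-high CMP (log2 fold change -1.53, standard error 0.38, edgeR quasi-likelihood adjusted p = 0.00617), and the other genes did not pass the test. Thus 1 of the 7 genes was called, where called means an adjusted p under 0.05 and a change over 2-fold, against 10.5% of all genes tested. At an adjusted p under 0.05 alone the count was also 1 of 7, against 17.2%, and the libraries of 1 of 7 did not overlap, against 39% of all genes. The log2 fold change was 0.41 for Hmgcs1 (adjusted p = 0.194), -0.43 for Idi1 (adjusted p = 0.246), -0.34 for Fdft1 (adjusted p = 0.511) and -0.31 for Sqle (adjusted p = 0.515). Values for Cyp51 (-0.10) and Mvd (0.06) were nearer 0, with 95% intervals of -0.56 to 0.36 and -1.03 to 1.15. The median over the 7 genes was -0.31, and over all genes tested 0.01.

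The lower Lss in CD62L-high CMP held with each library left out in turn, where its log2 fold change lay between -1.97 and -1.26 and the largest adjusted p was 0.0492. Markers of other lineages moved with it. The summed level of 8 megakaryocyte and erythroid markers was 695 to 818 CPM in CD62L-low CMP and 12.1 to 17.9 CPM in CD62L-high CMP, where 1 of the 8 was at 0. The sum of 6 monocyte markers was 29.9 to 56.5 CPM against 1113 to 1354 CPM, with none at 0. Of 12 immediate early and heat shock genes, 7 were lower in CD62L-high CMP and 0 higher at an adjusted p under 0.05, among them Egr1 (403 ± 70.8 CPM against 50.4 ± 18.4 CPM). Of 12 genes of the G2 and M phases of the cell cycle, 5 were higher and 0 lower, where 17.2% of all genes passed. The part of these in the difference of Lss was not tested. In bulk RNA of sorted cells, fewer cells that express a gene and less RNA of it per cell cannot be told apart.

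CD62L-high GMP was set against CD62L-neg GMP for the same question within GMPs. Lss was lower in CD62L-high GMP (log2 fold change -2.17, standard error 0.40, adjusted p = 0.000365). Cyp51 was also lower, by less than 2-fold (log2 fold change -0.69, standard error 0.22, adjusted p = 0.0351). So 1 of 7 genes was called (10.5% of all genes tested), 2 of 7 passed at an adjusted p under 0.05 alone (16.9%), and the libraries of 5 of 7 did not overlap (32.2%). Sqle (log2 fold change -0.58, adjusted p = 0.144), Mvd (1.20, adjusted p = 0.114) and Hmgcs1 (0.36, adjusted p = 0.241) were those whose libraries did not overlap but did not pass. Idi1 (-0.23) and Fdft1 (-0.17) overlapped. The median of the 7 genes was -0.23, against -0.04 over all genes.

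The difference of Lss held without any library in turn (-2.58 to -1.87, largest adjusted p = 0.00374). The call for Cyp51 was lost without any of the 3 CD62L-neg GMP libraries or without replicate 2 or 3 of CD62L-high GMP, with log2 fold changes of -0.77 to -0.64 and adjusted p up to 0.105. Megakaryocyte and erythroid markers summed to 127 to 164 CPM in CD62L-neg GMP and to 0.536 to 0.593 CPM in CD62L-high GMP, where 3 of 8 were at 0. Eosinophil markers (3 genes) summed to 1151 to 1762 CPM against 0 to 4.55 CPM, with 1 of 3 at 0 in CD62L-high GMP. Mast and basophil markers (5 genes) summed to 463 to 826 CPM against 2.88 to 3.41 CPM, with 2 of 5 at 0, and monocyte markers to 71.2 to 80.6 CPM against 1530 to 1815 CPM. By adjusted p alone, where 16.9% of all genes passed, 6 of the 12 immediate early and heat shock genes were lower and 1 higher in CD62L-high GMP. Of the 12 G2 and M phase genes 6 were higher and 0 lower. The part of all these in the differences was not tested.

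**Figure D2:**
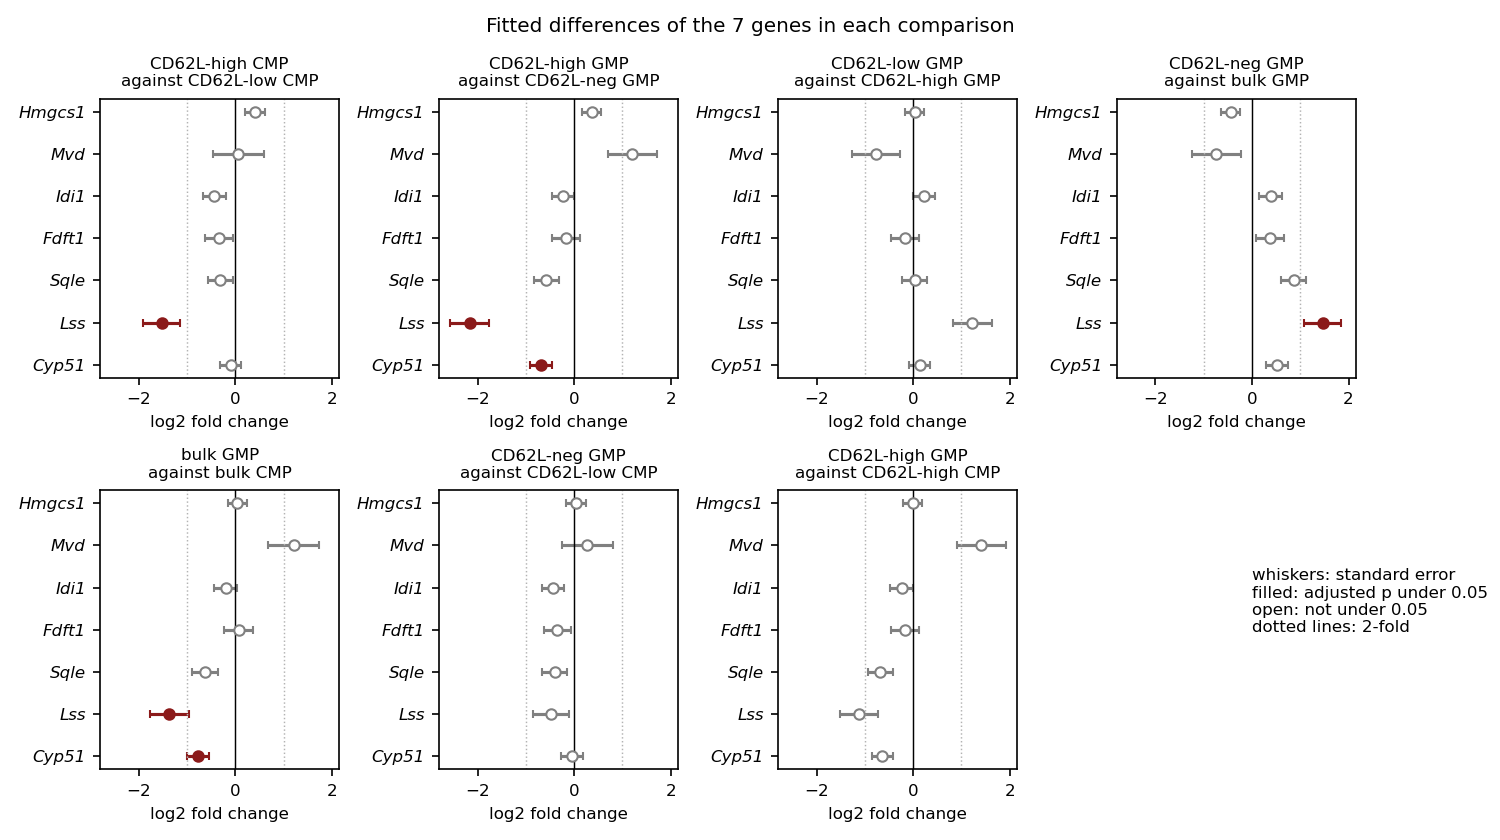
Log2 fold change of each gene in the 7 comparisons of populations (x axis, first population minus second), with whiskers for the standard error and filled points at an adjusted p under 0.05. Lss is filled in 4 panels, with values of -1.53, -2.17, 1.47 and -1.36, and Cyp51 in 2, with -0.69 and -0.78.

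Whether the CD62L difference was of another size in GMPs than in CMPs was tested as an interaction, (CD62L-high GMP minus CD62L-neg GMP) minus (CD62L-high CMP minus CD62L-low CMP). Of the 7 genes 0 passed, by the rule with fold (5.93% of all genes called) or by adjusted p alone (7.35%), with edgeR, and 0 had an unadjusted p under 0.05. DESeq2 also gave 0. For Lss the interaction was -0.64 on the log2 scale (standard error 0.54, 95% interval -1.76 to 0.49, adjusted p = 0.591). For Cyp51 it was -0.59 (adjusted p = 0.322) and for Mvd 1.14 (adjusted p = 0.434).

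CD62L-low GMP and CD62L-high GMP, the lower and upper ends of the CD62L-positive GMPs, showed no gene of the set past the test in edgeR. The count was 0 of 7 with the fold rule (1.22% of all genes) and 0 of 7 by adjusted p alone (2.03%), and 1 of 7 had an unadjusted p under 0.05, Lss. The libraries of 2 of 7 did not overlap (18.4% of all genes), Lss being higher in CD62L-low GMP (log2 fold change 1.23, standard error 0.40, adjusted p = 0.133) and Mvd lower (-0.76, adjusted p = 0.564). With no filter on low counts Lss did pass (1.23, adjusted p = 0.0329), and DESeq2 gave 0. The remaining values lay between -0.16 (Fdft1) and 0.23 (Idi1).

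CD62L-neg GMP was also compared with bulk GMP, of which it is a fraction. Lss was higher in CD62L-neg GMP (log2 fold change 1.47, standard error 0.39, adjusted p = 0.0215). That made 1 of 7 by the fold rule (4.07% of all genes) and 1 of 7 by adjusted p alone (6.33%). The libraries of 6 of 7 did not overlap (28.4%): Lss, Sqle (0.86, adjusted p = 0.0525), Cyp51 (0.52, adjusted p = 0.216), Idi1 (0.39) and Fdft1 (0.38) were above bulk GMP, and Hmgcs1 (-0.44, adjusted p = 0.258) was below it. The median was 0.39, against 0.01 over all genes. The call for Lss was lost without replicate 2 of bulk GMP (1.20, adjusted p = 0.144), replicate 3 of bulk GMP (1.51, adjusted p = 0.0703) or replicate 2 of CD62L-neg GMP (1.17, adjusted p = 0.149). Sqle passed in 5 of the 7 other settings tried, with adjusted p from 0.00645 to 0.0454 where it did. Marker sums moved here too. Eosinophil markers summed to 1151 to 1762 CPM in CD62L-neg GMP and 113 to 122 CPM in bulk GMP, and mast and basophil markers to 463 to 826 CPM against 79.9 to 89.3 CPM. Megakaryocyte and erythroid markers summed to 127 to 164 CPM against 25.0 to 27.3 CPM, and monocyte markers to 71.2 to 80.6 CPM against 992 to 1029 CPM, with no marker of these 4 lists at 0 throughout either population. Of the immediate early and heat shock genes 2 of 12 were higher and 4 lower in CD62L-neg GMP by adjusted p alone, and the median log2 fold change of the G2 and M phase genes was -0.12. The part of these in the difference of Lss was not tested.

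Bulk GMP against bulk CMP asks how the chain differs between the unsplit compartments. Lss (log2 fold change -1.36, standard error 0.40, adjusted p = 0.0161) and Cyp51 (-0.78, standard error 0.23, adjusted p = 0.0159) were lower in bulk GMP. Hence 1 of 7 was called (11.5% of all genes) and 2 of 7 passed by adjusted p alone (20.6%). The libraries of 4 of 7 did not overlap (35.5%), including those of Sqle, lower in bulk GMP (-0.62, adjusted p = 0.110), and of Mvd, higher (1.21, adjusted p = 0.115). Hmgcs1 (0.04), Fdft1 (0.07) and Idi1 (-0.20) were close to 0. Lss lost its call without replicate 2 of bulk GMP (-1.11, adjusted p = 0.0923). Cyp51 lost it without replicate 1 (-0.77, adjusted p = 0.0547) or replicate 3 (-0.74, adjusted p = 0.0639) of bulk GMP. Megakaryocyte and erythroid markers summed to 162 to 179 CPM in bulk CMP and 25.0 to 27.3 CPM in bulk GMP, and neutrophil markers (6 genes) to 4748 to 5390 CPM against 20812 to 21788 CPM. Eosinophil markers summed to 1.47 to 3.59 CPM against 113 to 122 CPM, and monocyte markers to 438 to 571 CPM against 992 to 1029 CPM, with no marker of these 4 lists at 0 throughout either population. Dendritic cell markers (5 genes) summed to 210 to 267 CPM in bulk CMP and 22.1 to 28.7 CPM in bulk GMP, where 1 of 5 was at 0. Most of that sum was Flt3, with means of 165 CPM in bulk CMP and 17.3 CPM in bulk GMP. In bulk CMP Cd74 and H2-Aa had means of 44.9 and 29.4 CPM, and Siglech and Batf3 of 0.0870 and 1.02 CPM. In bulk GMP, by adjusted p alone, 7 of the 12 immediate early and heat shock genes were lower and 0 higher, and 8 of the 12 G2 and M phase genes were higher and 0 lower. The part of these in the differences of Lss and Cyp51 was not tested.

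Populations with like CD62L were compared across the CMP and GMP gates. CD62L-neg GMP and CD62L-low CMP differed in 0 of 7 genes by either rule in edgeR (12.6% and 21.5% of all genes), with 0 of 7 at an unadjusted p under 0.05, and DESeq2 gave 0. The libraries of 1 of 7 did not overlap (40.5%), those of Idi1 (-0.44, adjusted p = 0.211), while Lss stood at -0.48 (standard error 0.37, 95% interval -1.25 to 0.30). CD62L-high GMP against CD62L-high CMP also gave 0 of 7 by either rule (7.64% and 12.5% of all genes), although 4 of 7 had an unadjusted p under 0.05. These were Lss (-1.12, adjusted p = 0.0717), Cyp51 (-0.64, adjusted p = 0.0641), Sqle (-0.68, adjusted p = 0.0992) and Mvd (1.41, adjusted p = 0.0738). The libraries of Cyp51 and Mvd, 2 of 7, did not overlap (31.2%). DESeq2 called Mvd and Lss in this comparison, and Cyp51 also passed there by adjusted p alone. These comparisons share libraries with those above, so their values are not independent of them.

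Lss was also set against the rest of the chain in the same library, which removes differences of scale between libraries. Per 100 CPM of the other 6 genes together, Lss had 17.5, 16.8 and 17.8 CPM in CD62L-low CMP, and 3.33, 5.89 and 10.8 CPM in CD62L-high CMP. In CD62L-neg GMP the values were 13.5, 19.1 and 10.6 CPM, and in CD62L-high GMP 3.41, 1.83 and 4.99 CPM. Neither pair of populations overlapped. Bulk CMP (mean 13.2 ± 1.42), CD62L-low GMP (8.38 ± 3.35) and bulk GMP (5.93 ± 2.32) lay between the extremes. The 3 libraries of CD62L-low CMP spanned 16.8 to 17.8 although their summed level of the 7 genes spanned 96.9 to 158 CPM.

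**Figure D3:**
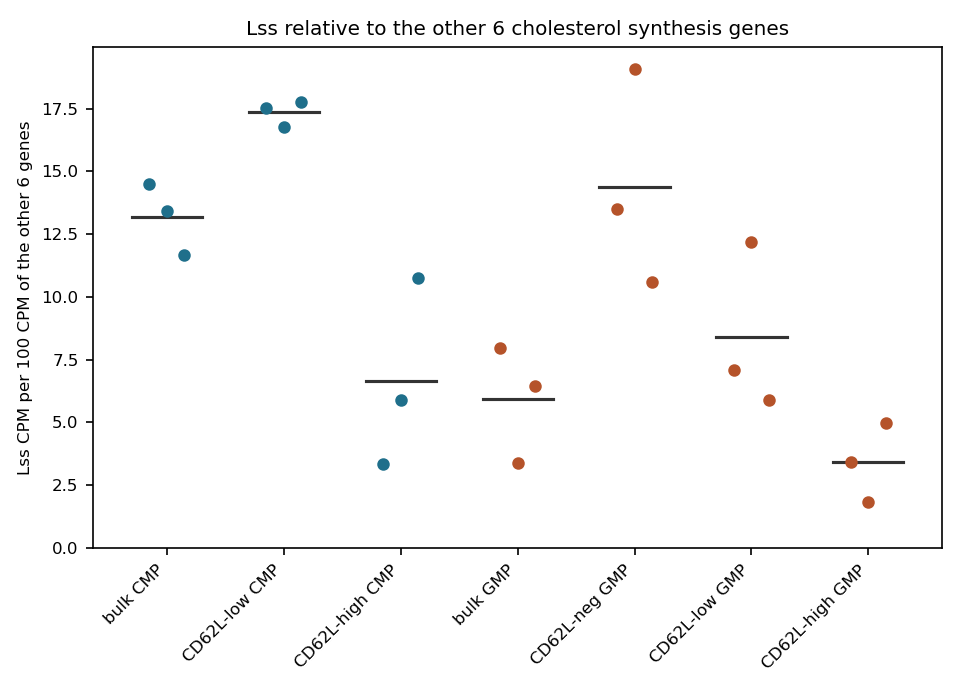
Lss level per 100 CPM of the other 6 genes in each of the 21 libraries (points) with the mean of each population (bar). CD62L-low CMP sits at 16.8 to 17.8 and CD62L-high GMP at 1.83 to 4.99.

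Some pairs of the 7 genes varied together and others did not, and the pairs given here are examples. The description is over the 21 libraries, which differ in depth and population. Pearson's r of log2 levels was 0.71 for Idi1 and Fdft1, 0.70 for Sqle and Cyp51, 0.60 for Lss and Cyp51, and -0.64 for Mvd and Lss. For Hmgcs1 it was -0.52 with Idi1 and -0.22 with Sqle. Within populations, after the population means were removed, r was 0.62 for Idi1 and Fdft1 and 0.65 for Sqle and Cyp51. For Lss and Cyp51 it was -0.15 and for Mvd and Lss -0.07. There Hmgcs1 had -0.20 with Idi1 and 0.60 with Sqle. The mean of the 7 centred log2 profiles was highest in CD62L-low CMP (0.26 ± 0.26) and lowest in bulk GMP (-0.17). The 10 other genes most like that mean profile, of 8343 ranked, were Spindoc (r = 0.85), Ifih1, Irgm1, Tgtp2, Nmnat3, Rgs12, Kdm5b, Dock11, Pfkm and Tbcel (r = 0.79). Without replicate 2 of bulk CMP, 4 of these 10 stayed among the 10.

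Some counts may be affected by overlapping neighbours, in a direction not known here, because the sources used here do not say whether counting used strand. Ctsb, a cathepsin gene on the opposite strand, shares 774 exon bases with Fdft1 and had means from 40.2 CPM in CD62L-low CMP to 223 CPM in CD62L-high GMP. Akap9 shares 166 exon bases with Cyp51 and had means of 128 to 188 CPM. The antisense gene 4930483K19Rik shares 381 exon bases with Lss and had at most 3 counts in any library. Gene models on the opposite strand also overlap Hmgcs1 (Gm48342), Idi1 (Gm48574) and Mvd (Gm20388), and none overlaps Sqle. Gm20388 shares 0 exon bases with Mvd and had 0 counts in every library.

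Most of the other enzymes of the chain did not pass the test. Of 14, 1 was lower and 0 higher in CD62L-high CMP than in CD62L-low CMP at an adjusted p under 0.05, against 17.2% of all genes tested. The median log2 fold change of the 14 was 0.14. In CD62L-high GMP against CD62L-neg GMP 2 were lower and 1 was higher (median -0.19), against 16.9% of all genes. The higher gene was Lbr (0.36, adjusted p = 0.0354). Lbr and the other genes under 2-fold in the lists below were named after their values were seen. Mvk, the mevalonate kinase, was higher in bulk GMP than in bulk CMP (1.38, adjusted p = 0.0486). The call was lost without any library except replicate 3 of bulk CMP (adjusted p 0.0576 to 0.118). It was also lost in 4 of 7 other settings, and the largest adjusted p of all these fits was 0.275. Bulk CMP held 53 counts of Mvk in total, with its lowest library at 0 CPM.

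The isoprenoid branch leads from the same intermediates to prenylated proteins, dolichol and ubiquinone. Of 9 of its enzymes, 1 was higher (Dhdds, 0.55, adjusted p = 0.0185) and 0 lower in CD62L-high CMP, against 17.2% of all genes. Between CD62L-high GMP and CD62L-neg GMP 0 passed, against 16.9%. Among 7 SREBP factors and regulators, Srebf2 was the gene named by size. It was at 186 ± 12.1 CPM in CD62L-low CMP, 163 ± 24.8 CPM in bulk CMP and 137 ± 1.72 CPM in CD62L-high CMP. The GMP means ran from 64.9 CPM in CD62L-low GMP to 93.3 CPM in CD62L-neg GMP, and no GMP library reached any CMP library. In bulk GMP against bulk CMP it fell by 1.16 on the log2 scale (standard error 0.16, adjusted p = 9.34e-06). In that comparison 2 of the 7 were lower, Srebf2 and Insig1 (-0.63, adjusted p = 0.0284), and 0 higher by adjusted p alone (median -0.30). The share over all genes was 20.6%.

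Genes of uptake and of transport inside the cell numbered 13. By adjusted p alone, CD62L-high CMP had 3 above and 1 below CD62L-low CMP, against 17.2% of all genes. CD62L-high GMP had 3 above and 4 below CD62L-neg GMP (median -0.10), against 16.9% of all genes. The 3 were Lrp1, Scarb1 and Npc2 in both. Lrp1, an endocytic receptor for many ligands, was at 3.74 ± 2.57 CPM in CD62L-low CMP and 35.4 ± 4.45 CPM in CD62L-high CMP (3.23, adjusted p = 4.51e-08). In GMPs it was at 15.5 ± 3.82 CPM in CD62L-neg GMP and 92.0 ± 16.6 CPM in CD62L-high GMP (2.57, adjusted p = 2.29e-07). Npc2, which binds cholesterol in lysosomes, rose in CD62L-high CMP (1.57, adjusted p = 4.96e-07). Stard4, which carries sterol between membranes, fell from 68.5 ± 5.71 CPM in CD62L-low CMP to 27.2 ± 5.13 CPM in CD62L-high CMP (-1.33, adjusted p = 2.08e-05). In GMPs Stard4 (-0.76, adjusted p = 0.00796), Lrp8 (-0.69, adjusted p = 0.00829) and Mylip (-0.89, adjusted p = 0.0107) were lower in CD62L-high GMP.

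Efflux, storage and the sterol-sensing LXR receptors were covered by 7 genes. By adjusted p alone, 1 was higher and 1 lower in CD62L-high CMP against CD62L-low CMP (median -0.26), against 17.2% of all genes. The counts were the same in CD62L-high GMP against CD62L-neg GMP (median -0.07), against 16.9%. Soat1, which esterifies cholesterol for storage, was higher where Lss was lower, with 12.6 ± 1.88 CPM in CD62L-low CMP and 55.9 ± 4.52 CPM in CD62L-high CMP (2.15, adjusted p = 7.55e-07). In CD62L-neg GMP it was at 35.9 ± 4.64 CPM and in CD62L-high GMP at 199 ± 28.4 CPM (2.47, adjusted p = 5.81e-08). Abca1, an exporter of cholesterol, separated CMPs from GMPs, at 30.9 ± 4.24 CPM in CD62L-high CMP against 5.18 ± 2.17 CPM in CD62L-high GMP (-2.58, adjusted p = 1.23e-05). Abcg1, another exporter, was lower in bulk GMP than in bulk CMP (-1.62, adjusted p = 0.000632).

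Many fatty acid genes are under the related factor SREBP-1. Of 9, 2 were higher (Fasn and Elovl5) and 1 lower (Acss2) in CD62L-high CMP by adjusted p alone (median 0.17), against 17.2% of all genes. In CD62L-high GMP against CD62L-neg GMP 0 were higher and 5 lower (median -0.65), against 16.9% of all genes. These 5 were Acss2, Fads1, Fads2, Elovl5 and Scd2. Acss2, which makes acetyl-CoA from acetate, was at 33.7 ± 2.07 CPM in CD62L-low CMP and 5.14 ± 3.45 CPM in CD62L-high CMP (-2.70, adjusted p = 0.000873). In GMPs it was at 12.4 ± 4.69 CPM in CD62L-neg GMP and 1.11 ± 1.02 CPM in CD62L-high GMP (-3.44, adjusted p = 0.000233). Fads2, a desaturase of polyunsaturated fatty acids, was at 11.9 ± 1.89 CPM in CD62L-neg GMP and 0 to 0.445 CPM in CD62L-high GMP (-5.29, adjusted p = 1.11e-08). Its partner Fads1 fell by 1.61 on the log2 scale in the same comparison (adjusted p = 6.22e-05). Several calls under 2-fold in these lists were lost with a library left out. Between CD62L-high CMP and CD62L-low CMP those of Dhdds and Scarb1 were each lost in 4 of 6 such fits, and those of Fasn and Elovl5 in 3 of 6. Between CD62L-high GMP and CD62L-neg GMP that of Lbr was lost in 5 of 6, those of Mylip and Scarb1 in 2 of 6, and that of Stard4 without replicate 3 of CD62L-high GMP (adjusted p = 0.0536). Between bulk GMP and bulk CMP that of Insig1 was lost in 3 of 6. Ch25h, Me1 and Scd1 had at most 0, 2 and 7 counts in any library and were not tested.

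**Figure D4:**
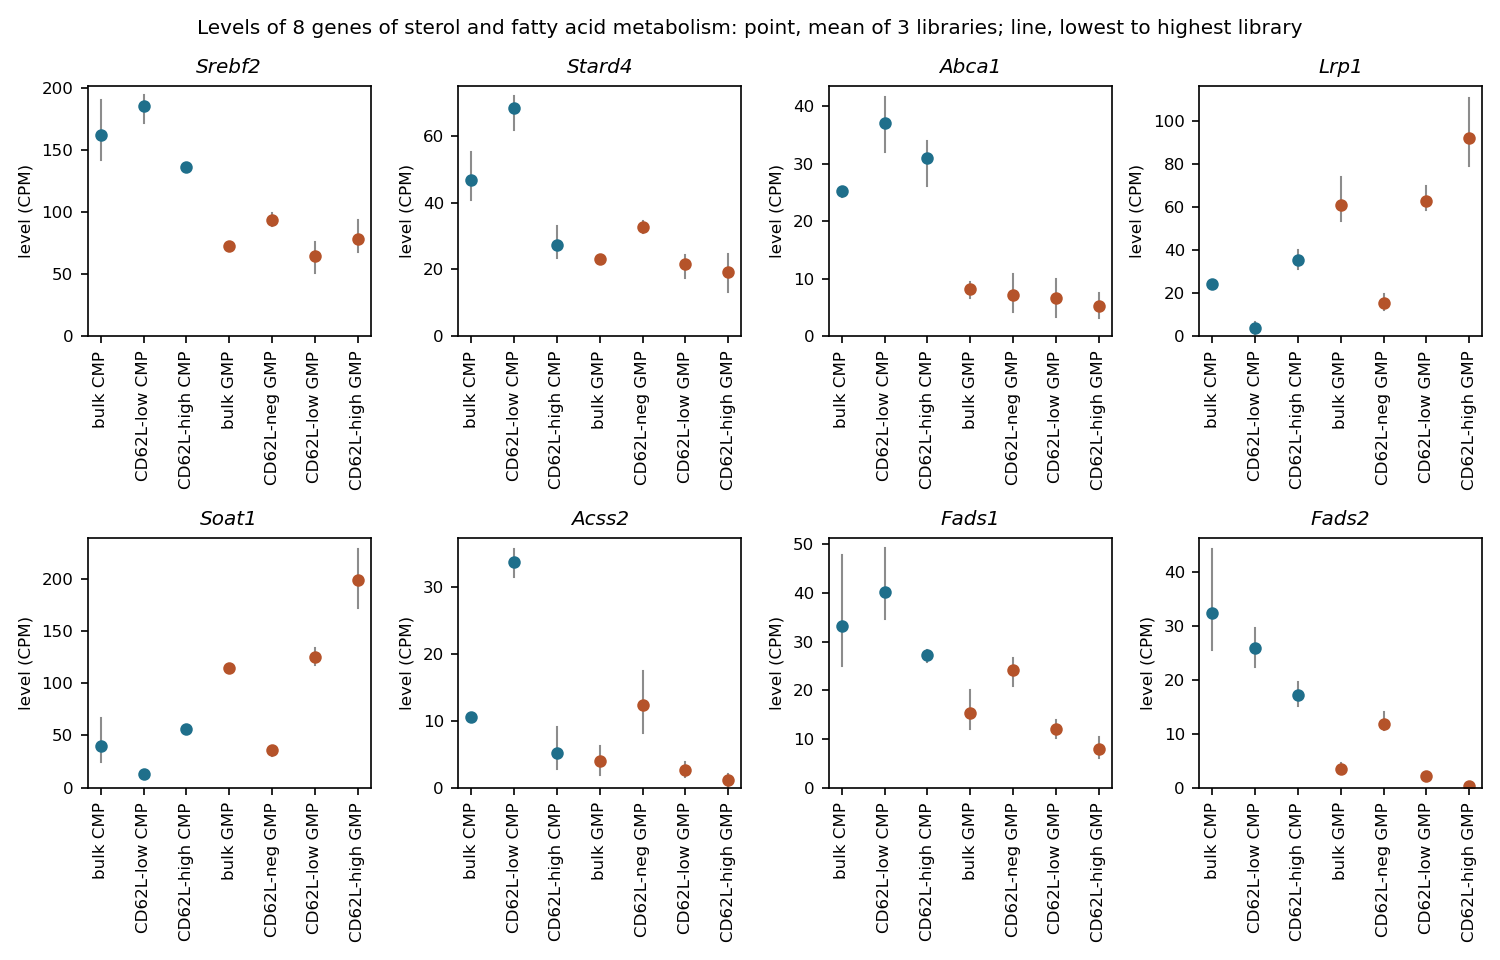
Levels (CPM, linear axes from 0) of 8 genes named above in the 7 populations, with a point for the mean of 3 libraries and a line from the lowest to the highest library. Srebf2 is at 137 CPM or more in each CMP mean and at 93.3 CPM or less in each GMP mean, and Soat1 rises to 199 CPM in CD62L-high GMP.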

How the data were processed

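The deposited table held raw read counts per gene, which the authors made with bcl2fastq, Trim Galore, HISAT2 (mm10) and HTSeq. Versions, annotation release and strand setting are not given in the sources used here, and the labels and methods name different kits of the SMART family. Counts were tested as deposited in R 4.3.3 with edgeR 4.0.16. filterByExpr kept 14801 genes, TMM scaled the libraries, and a quasi-likelihood fit over all 21 libraries gave each contrast, with Benjamini-Hochberg adjustment over the 14801 genes. Standard errors are the absolute log2 fold change over the square root of F. The study used DESeq2, here an alternative (1.42.0). Likeness to the mean profile used log2(CPM + 4) of genes with a mean of at least 10 CPM. The fit was tested on simulated data. Deviations from the population mean correlated at -0.0886 to 0.0831 between same-numbered libraries, and replicate number was left out of the main fit. With 3 libraries per population, these correlations cannot show that the samples were unpaired. Outside the 7 genes, each list names its called genes, at most 4 per direction. Members and lists were chosen with earlier results of these data known. Certain genes of these lists are not reported here.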

Additional observations from a re-analysis of the deposited data

Results flagged for a closer look

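None of the 7 genes met a rule for a closer look, and groups of 3 libraries were not tested for outlying samples. Among the genes of the related lists that are reported here, 3 had a CD62L difference that was tested as unlike between GMPs and CMPs, given as the difference in GMPs (CD62L-high GMP minus CD62L-neg GMP) minus that in CMPs (CD62L-high CMP minus CD62L-low CMP) on the log2 scale, with edgeR adjusted p. For Fads2 the interaction was -4.70 (adjusted p = 6.67e-06). For Elovl5, a fatty acid elongase, it was -1.21 (adjusted p = 0.000996), the gene being higher in CD62L-high CMP (0.56) and lower in CD62L-high GMP (-0.65). For Scd2, a stearoyl-CoA desaturase outside the naming rule, it was -0.92 (adjusted p = 0.0329), and the call was lost in 8 of 12 fits that left out a library.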

How the results depend on the processing

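The call of lower Lss in CD62L-high CMP against CD62L-low CMP and in CD62L-high GMP against CD62L-neg GMP held under all 7 other settings and with each library left out. The counts of genes past the test changed as follows, and the cause was not tested. In CD62L-neg GMP against bulk GMP, 2 genes were higher by adjusted p alone (Sqle added) with DESeq2 size factors, DESeq2, no filter on low counts, the compared libraries alone, or without bulk CMP library 2. In CD62L-low GMP against CD62L-high GMP, no filter gave 1 higher by both rules. In CD62L-high GMP against CD62L-neg GMP, 1 gene was lower by adjusted p alone with no filter or the compared libraries alone, and 1 (Mvd) was higher by both rules without bulk CMP library 2. In CD62L-high GMP against CD62L-high CMP, DESeq2 gave 1 higher by both rules, 1 called lower and 2 lower by adjusted p alone. There no filter gave 1 lower by both rules, and the compared libraries alone or the omission of bulk CMP library 2 gave 1 higher by both. With the replicate block, 1 gene was lower there by adjusted p alone (Cyp51, -0.63, adjusted p = 0.0443), and the block changed no other call of the 7 genes. Values near 0 changed sign for Hmgcs1 in bulk GMP against bulk CMP (-0.0271 with DESeq2 size factors, -0.0270 with DESeq2) and in CD62L-neg GMP against CD62L-low CMP (-0.0105 and -0.0106), and for Fdft1 in bulk GMP against bulk CMP without bulk CMP library 2 (-0.0647). With a library left out, counts ranged from 0 to 1 called lower and 1 to 2 lower by adjusted p alone in bulk GMP against bulk CMP, 0 to 1 higher by both rules in CD62L-neg GMP against bulk GMP, 1 to 2 lower by adjusted p alone in CD62L-high GMP against CD62L-neg GMP, and 0 to 1 lower by both rules in CD62L-high GMP against CD62L-high CMP. Of 378 fold changes with a library left out, 27 had another sign, and 0 of these passed the test in either fit. Low counts limit Mvd most, with 1 to 99 reads per library.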
